A study of Arabidopsis thaliana with 16 samples.

Results

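The regions described here are stretches of the Arabidopsis thaliana genome at which 4 peak lists coincide, those of H3K27me3 and of H3K4me3 in sorted guard cells of 2 genotypes. A region is the intersection of a peak from each list on chromosomes 1 to 5, at least 150 bp long, and 804 such regions were found among 47063 deposited peaks. The members were chosen by the listed peaks of all 4 lists, so the presence of both marks in both genotypes is the rule and not a result. The regions together spanned 540808 bp, with a shortest length of 151 bp, a median of 601 bp and a longest of 2167 bp. Most of them, 759, covered at least 150 bp of a protein-coding gene, which gave 769 such genes, among them the flowering repressor FLC, the sucrose carriers SUC1, SUC2, SUC5 and SUT4, the auxin carriers PIN4 and PIN7, the jasmonate repressors JAZ1 and JAZ5, and 4 genes of abscisic acid synthesis.

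Trimethylation of lysine 27 of histone H3 (H3K27me3) is set by Polycomb repressive complex PRC2 and is known for keeping developmental genes silent. Trimethylation of lysine 4 (H3K4me3) is set by Trithorax-type methyltransferases and is found near the starts of genes that are transcribed or open to transcription. Chromatin with both marks is often called bivalent and was first described at developmental genes of mammalian stem cells; in plants it was described at FLC among others. The marks were measured here in separate immunoprecipitations from pools of cells. Both marks on the same nucleosome, on different alleles and in different cells of the pool therefore cannot be told apart.

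Guard cells, the paired cells that open and close a stomatal pore, were sorted as protoplasts from the aerial tissue of 12-day-old seedlings kept at 22 °C in cycles of 16 h light and 8 h dark. The genotypes were Wild Type (WT) and fama-1 with the construct FAMAp:FAMA-LGK, called FAMA-LGK, which the series describes as genetically reprogrammed. FAMA is the transcription factor that drives guard cell differentiation; in FAMA-LGK its own promoter drives a form altered in the motif that binds the retinoblastoma-related protein, in a background that lacks the native factor. The series held 16 libraries, 8 ChIP and 8 input, so that every mark and genotype had 2 of either kind.

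Each mark in each genotype has 1 peak list for its libraries together. The H3K27me3 lists held 7386 peaks (WT) and 7652 (FAMA-LGK), and the H3K4me3 lists 16036 and 15989. The lists give no read counts and no value per replicate. The depth is therefore unknown, no replicate error stands behind any difference, and no test between genotypes was possible; every comparison below is a description of the lists. Of 12 guard cell marker genes, H3K4me3 covered at least 150 bp of 12 in WT against 10 in FAMA-LGK. It was also listed over 8 of 8 mesophyll markers in WT against 6 in FAMA-LGK, over 1 of 6 vascular markers in each genotype (SUC2), and over 3 of 6 trichome and root hair markers in each. For stomatal lineage markers the count was 5 of 8 in WT but 7 in FAMA-LGK, and for epidermis markers 4 of 5 but 5. Among all protein-coding genes, 60.2% had at least 150 bp of H3K4me3 in both genotypes. The part of other cells in the regions was not tested.

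In the H3K27me3 lists, the peaks that held a region were ordinary to strong members of their list; in the H3K4me3 lists most were among the weaker ones. Peaks were ranked within each list by the authors' −log10 q, a measure of how unlikely the enrichment over input would be by chance, which grows with the strength of a peak. A region lay in 790 distinct H3K27me3 peaks of WT (10.7% of the list) and 791 of FAMA-LGK (10.34%). For H3K4me3, a region lay in 797 peaks of WT (4.97%) and 799 of FAMA-LGK (5.0%). The median percentile was 59.2 in WT against 58.9 in FAMA-LGK for H3K27me3, but 14.2 and 14.8 for H3K4me3, where 50 is the middle of a list. The lowest 25% of the list held 548 of the 797 WT H3K4me3 peaks with a region (68.76%, exact 95% interval 65.41 to 71.96). It held 540 of the 799 in FAMA-LGK (67.58%, 64.22 to 70.82). For H3K27me3 the lowest 25% held 98 of 790 (12.41%) in WT and 116 of 791 (14.66%) in FAMA-LGK. Intervals cover counting error only.

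The authors' fold, the ChIP enrichment over its control at a peak, ran the same way. In WT the median fold of H3K4me3 peaks with a region was 2.92, against 5.1 for those without, and in FAMA-LGK 2.85 against 4.63. For H3K27me3 it was 3.28 with a region against 2.85 without in WT, and 3.4 against 2.95 in FAMA-LGK. The H3K4me3 peaks were also narrower, with a median of 878 bp against 1121 bp in WT and 925 against 1140 bp in FAMA-LGK. The H3K27me3 peaks with a region were narrower too, at 1403 against 1571 bp in WT and 1331 against 1519 bp in FAMA-LGK. Regions in the highest 50% of all 4 lists by −log10 q numbered 30.

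**Figure D1:**
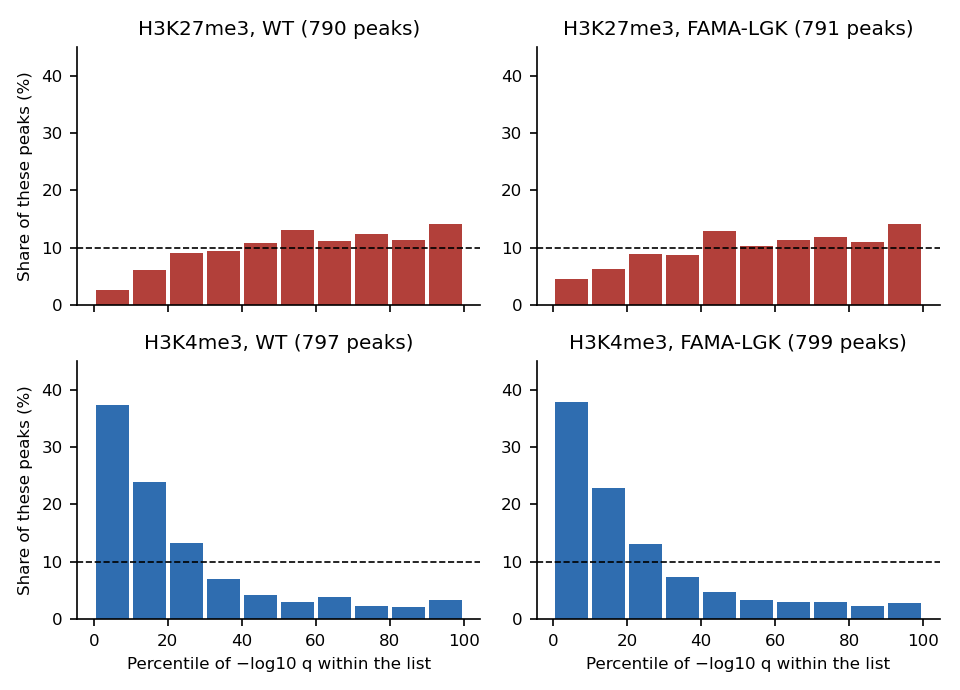
For each list, the share (%) of the peaks holding a region that fell in each 10% step of the list, ordered by −log10 q from weakest (left) to strongest (right); a dashed line marks the 10% that each step of the whole list holds. H3K4me3 peaks with a region (blue) crowd at the weak end, with median percentiles of 14.2 (WT) and 14.8 (FAMA-LGK), whereas those of H3K27me3 (red) are fewest at the weak end, with medians of 59.2 and 58.9.

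The members nearest the threshold of 150 bp and the intersections just under it stood as follows. The shortest members were 151 bp at chr1:25127061-25127211, at AT1G67160 and AT1G67170, 151 bp at chr3:9024571-9024721 and 152 bp at chr2:11824597-11824748 (TAIR10, counted from 1). Their H3K4me3 peaks had folds of 4.43, 5.3 and 5.53 in WT. The longest intersections left out were 145 bp at chr5:9424950-9425094, 143 bp at chr2:10402940-10403082 and 133 bp at chr1:2151048-2151180, in EXO70B2, a subunit of the exocyst. Their H3K4me3 peaks had folds of 5.23, 5.35 and 6.87 in WT.

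At 62.56% of regions in each genotype the peak of 1 mark lay wholly within that of the other, a share that was 30.0% among the 30 regions left with the highest 50% of peaks in every list. In WT the H3K4me3 peak lay wholly inside the H3K27me3 peak at 331 regions (41.17%), the reverse held at 172 (21.39%), and the peaks overlapped at an edge at 301 (37.44%). In FAMA-LGK these numbers were 294 (36.57%), 209 (26.0%) and 301 (37.44%). The class was the same in both genotypes at 567 regions (70.52%, 67.24 to 73.66). Of the 331 regions with H3K4me3 inside in WT, 35 had H3K27me3 inside in FAMA-LGK and 63 overlapped at an edge.

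Regions that kept a class differed in the width and rank of both marks. At the 233 regions with H3K4me3 inside in both genotypes, the median H3K27me3 peak was 2516 bp wide in WT, at percentile 82.5, and the median H3K4me3 peak was 652 bp wide, at percentile 6.3. At the 124 regions with H3K27me3 inside in both, the median H3K27me3 peak in WT was 728 bp wide, at percentile 34.6, and the median H3K4me3 peak 1525 bp, at percentile 41.6. The class is read from the peak ends, so part of the difference in width follows from it. The shared stretch was of like length in these classes, with medians of 581 and 625 bp.

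**Figure D2:**
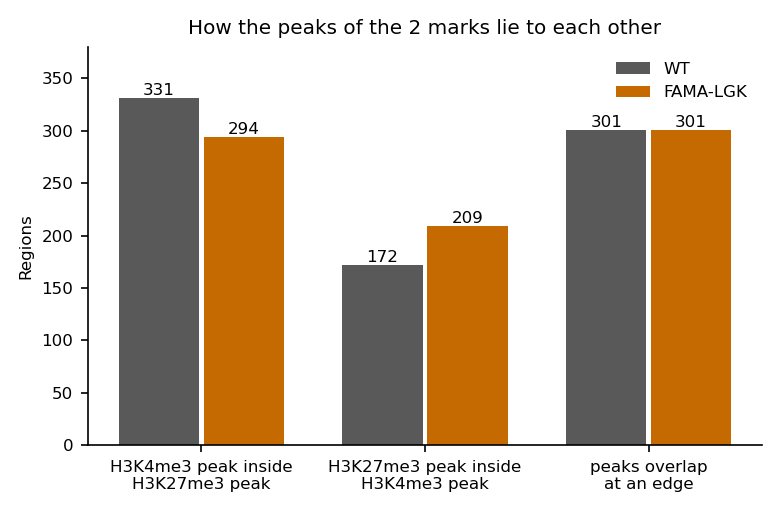
Number of regions (of 804) in each class of position of the H3K4me3 and H3K27me3 peaks in WT (grey) and FAMA-LGK (orange); bars start at 0 and carry their counts. H3K4me3 inside H3K27me3 is the most frequent class in WT (331), and in FAMA-LGK it numbers 294, beside 301 with overlap at an edge.

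Summit positions follow in part from the rule, since a region covers most of its H3K4me3 peak, and they are given as a description. The H3K4me3 summit fell inside the region at 690 of 804 regions in WT (85.82%) and 702 in FAMA-LGK (87.31%). The H3K27me3 summit did so at 588 (73.13%) and 580 (72.14%). The median distance between the summits of the 2 marks was 181.5 bp in WT against 183.5 bp in FAMA-LGK. The overlap of the marks covered a median of 93.55% of the H3K4me3 peak in WT against 91.7% in FAMA-LGK, against 54.7% and 59.1% of the H3K27me3 peak.

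Protein-coding genes held nearly all regions. At 759 of 804 regions (94.4%) at least 150 bp of a gene body was covered, and 696 (86.57%) lay wholly within 1 gene body. Nearly all WT H3K4me3 summits also lay in genes of the table used, as given with the processing. The share is therefore not read as particular to the regions. A gene was counted where a region covered at least 150 bp of its body, which gave 769 of 27444 genes (2.8%). The length given as shared at a gene is the part of its body that both marks covered in a genotype. They were 12.2% of the 6329 genes with at least 150 bp of H3K27me3 in both genotypes, and 4.65% of the 16526 with that much H3K4me3 in both. Those groups were 23.1% and 60.2% of all protein-coding genes. Both marks were listed somewhere in the body in both genotypes at 942 genes, and in 769 of these (81.63%, 79.01 to 84.06) they met in a region. H3K27me3 covered a median of 75.1% of the body of the 769 genes in WT against 71.4% in FAMA-LGK, and H3K4me3 51.9% and 53.4%. In 189 of them (24.58%) H3K27me3 covered at least 90% of the body in both genotypes.

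The counts of the 28 gene lists below are descriptions beside the 2.8% of all genes, with no test. Together the lists held 2146 genes, of which 125 (5.82%) had a region. No member of the stomatal lineage list had one (0 of 26, upper limit 13.2%). H3K4me3 was listed in both genotypes at 21 of these genes, but H3K27me3 at only 2, so few could have a region. SPCH carried both marks in WT only (540 bp), and MUTE (1312 bp) and CYCD7;1 (454 bp) in FAMA-LGK only. The cell cycle list had no member with a region either (0 of 42, upper limit 8.4%), with H3K4me3 in both genotypes at 36 and H3K27me3 at 0. Nor had housekeeping genes (0 of 16, upper limit 20.6%), with H3K27me3 in both genotypes at 0. For mesophyll photosynthesis (0 of 17, upper limit 19.5%) H3K27me3 was listed in both genotypes at 1. The limits are exact 95% bounds.

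**Figure D3:**
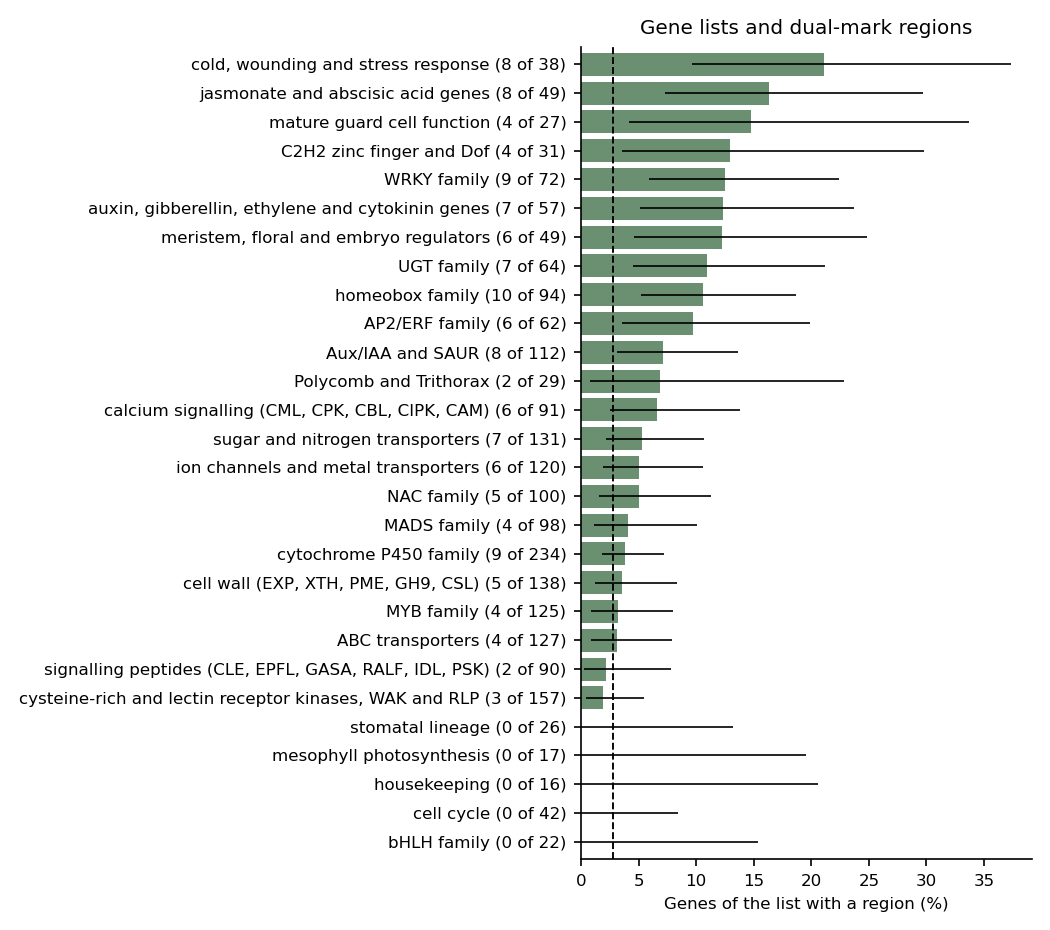
Share (%) of the genes of each list with a region (bars, from 0), with the exact 95% interval (lines, counting error only) and the count of genes beside each name. The dashed line is the share among all protein-coding genes, 2.8%; cold, wounding and stress genes stand highest (8 of 38), and stomatal lineage, mesophyll, housekeeping, cell cycle and bHLH genes have no region.

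Of 49 meristem, floral and embryo regulators, H3K27me3 covered 45 in both genotypes and H3K4me3 11, and 6 had a region: FLC, AGL20, AGL15, SEP4, KNAT6 and LEC2. FLC, which represses flowering until winter cold has silenced it, lay in an H3K27me3 peak of 8069 bp in WT (chr5:3173372-3181440, fold 6.44) and 8064 bp in FAMA-LGK (chr5:3173378-3181441, fold 6.36). Its region, chr5:3178896-3179439, lay in H3K4me3 peaks of 560 bp (fold 2.33) and 604 bp (fold 2.42). Both H3K4me3 peaks were weak for their lists, at percentiles 9.0 and 10.2.

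The marks shared 553 bp of the FLC gene body in WT against 1145 bp in FAMA-LGK, where a further H3K4me3 stretch outside the region was listed. AGL20 (SOC1), a floral activator that FLC represses, shared 1116 bp in WT against 1038 bp in FAMA-LGK. AGL15, a MADS factor of embryos, shared 502 and 512 bp. KNAT6, a homeobox gene of the shoot meristem, shared 717 and 494 bp. H3K27me3 at AGL20 and KNAT6 was far longer than the shared stretch: 3446 bp of AGL20 and 3118 bp of KNAT6 in WT. LEC2, a regulator of embryo development, had H3K27me3 over 1266 bp and H3K4me3 over 1096 bp in WT, of which 486 bp were shared, and 1221, 521 and 521 bp in FAMA-LGK.

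The shares of transcription factor families had overlapping exact 95% intervals, and no difference between families was tested. Members with a region numbered 9 of 72 in the WRKY family (12.5%, 5.9 to 22.4) and 10 of 94 among homeobox genes (10.6%, 5.2 to 18.7). They numbered 6 of 62 in the AP2/ERF list (9.7%, 3.6 to 19.9) and 4 of 31 among C2H2 zinc finger and Dof genes (12.9%, 3.6 to 29.8). In the NAC family there were 5 of 100 (5.0%, 1.6 to 11.3), and in the MADS family 4 of 98 (4.1%, 1.1 to 10.1). The MYB family had 4 of 125 (3.2%, 0.9 to 8.0) and the bHLH list 0 of 22 (upper limit 15.4%). H3K27me3 was listed in both genotypes at 76 of the 125 MYB genes and H3K4me3 at 31, but both together at 4.

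WRKY48, a pathogen-induced transcription factor, held the longest region of all, 2167 bp at chr5:20090749-20092915. Its H3K27me3 peaks were 6968 bp (fold 6.21) in WT and 6828 bp (fold 8.03) in FAMA-LGK, and its H3K4me3 peaks 2189 bp (fold 5.52) and 2348 bp (fold 5.88). It stood high in all 4 lists, with percentiles of 98.8 and 99.8 for H3K27me3 and of 67.2 and 93.6 for H3K4me3. WRKY23, a factor of auxin-dependent root development, shared 1280 bp in WT against 1365 bp in FAMA-LGK. WRKY40, a factor of pathogen and abscisic acid responses, shared 887 and 1208 bp.

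Among homeobox genes the BELL-type BLH4 shared 1515 bp in WT against 1863 bp in FAMA-LGK, a difference of 348 bp that turned to -103 bp once peaks at most 500 bp apart were merged. BLH2 shared 1431 and 1534 bp. Both genes restrain leaf margin growth. RPL, a BELL-type factor of the fruit and shoot meristem, shared 1119 and 1031 bp. The HD-Zip gene HAT1 shared 1271 bp in WT against 833 bp in FAMA-LGK. In the NAC family NAC019, a factor of drought and jasmonate responses, shared 1552 and 1194 bp, and its relative NAC3 1165 and 1377 bp. In the MYB family MYB74 shared 1229 bp in WT against 544 bp in FAMA-LGK, whereas MYB34, a factor of indole glucosinolate synthesis, shared 359 and 360 bp. The H3K4me3 peak of MYB74 was at percentile 22.0 in WT and 1.6 in FAMA-LGK, and that of MYB34 at 1.4 and 2.1.

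Hormone genes with a region stood at several steps, from synthesis to carriers and repressors. Of 49 jasmonate and abscisic acid genes, 8 had one (16.3%): the repressors JAZ1 and JAZ5, the jasmonate synthesis genes AOS and AOC3, and NCED2, NCED5, NCED6 and NCED9, which encode the carotenoid-cleaving step of abscisic acid synthesis. JAZ5 shared 1393 bp of both marks in WT against 1517 bp in FAMA-LGK, and JAZ1 1117 and 1545 bp. NCED5 had a region of 1510 bp at chr1:10571373-10572882. Its H3K27me3 peak was 3774 bp (fold 5.48) in WT and 9728 bp (fold 6.73) in FAMA-LGK, while its H3K4me3 peak was 1668 bp (fold 4.04) and 1510 bp (fold 2.8). NCED2 shared 1327 and 1159 bp.

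Of 57 auxin, gibberellin, ethylene and cytokinin genes, 7 had a region (12.3%). PIN4, an auxin exporter of polar transport, shared 1328 bp in WT against 1263 bp in FAMA-LGK. GA2OX6, which inactivates gibberellins, shared 1162 and 1186 bp. YUC6, an enzyme of auxin synthesis, shared 1074 and 1047 bp. At these 3 genes the shared length differed by at most 65 bp between the genotypes, but single marks differed more at GA2OX6 and PIN4. In FAMA-LGK, H3K4me3 covered 2804 bp of GA2OX6 (WT 1328 bp) and 2010 bp of PIN4 (WT 1328 bp). H3K27me3 covered 1263 bp of PIN4 in FAMA-LGK (WT 1833 bp) and 1186 bp of GA2OX6 (WT 1162 bp). At YUC6, H3K4me3 covered 1081 bp (WT 1077 bp) and H3K27me3 1421 bp (WT 1325 bp). Of the 112 Aux/IAA and SAUR genes, 8 had a region (7.1%), with IAA2 at 850 bp in WT against 1185 bp in FAMA-LGK and IAA19 at 671 and 842 bp.

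Genes induced by stress made up the list with the highest share, 8 of 38 (21.1%, 9.6 to 37.3): ERF11, PR5, HSFA2, ZAT11, TCH3, LTI30, HSP17.6A and RD22. TCH3, a touch-induced calmodulin-like protein, shared 1396 bp in WT against 1197 bp in FAMA-LGK. RD22, a dehydration-induced gene, shared 772 and 762 bp. ERF11, a repressor of the ethylene response, shared 662 and 716 bp, and the defence gene PR5 672 and 652 bp. RD22 and YUC6 are neighbours. In the calcium list 6 of 91 genes had a region (6.6%), 4 of them kinases of the CIPK family, and CIPK5 shared 710 bp in each genotype.

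Guard cell genes were represented by 4 of 27 (14.8%, 4.2 to 33.7). ALMT12, the anion channel of guard cell closure, shared 1972 bp in WT against 718 bp in FAMA-LGK, with a region of 490 bp at chr4:9976928-9977417. Its H3K4me3 peak was 2677 bp (fold 5.16) in WT and 925 bp (fold 3.79) in FAMA-LGK. Its H3K27me3 peak was 1972 bp (fold 2.12, percentile 22.3) in WT and 2515 bp (fold 4.19, percentile 72.2) in FAMA-LGK. RBOHD, an NADPH oxidase of stress and abscisic acid signalling, shared 995 and 760 bp. RBOH F, its partner in guard cells, shared 1009 and 1000 bp, and the blue light receptor PHOT1 582 and 474 bp. All 4 had a shorter shared stretch in FAMA-LGK, beside 52.3% of the 769 genes with a region. The single marks did not differ alike at these genes. H3K4me3 covered 1432 bp of RBOHD in WT against 3343 bp in FAMA-LGK, and 1109 and 1831 bp of PHOT1. H3K27me3 covered 995 and 760 bp of RBOHD, and 582 and 474 bp of PHOT1. At RBOH F, H3K4me3 covered 1199 and 1000 bp and H3K27me3 1221 and 1331 bp. Of 12 guard cell markers, H3K27me3 was listed at 1 in WT, ALMT12, and at 3 in FAMA-LGK. Among all protein-coding genes, 23.1% had at least 150 bp of H3K27me3 in both genotypes.

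Of 29 Polycomb and Trithorax genes, 2 had a region. EMF1, a plant protein of Polycomb repression, shared 1035 bp in WT against 1168 bp in FAMA-LGK, under an H3K27me3 peak of 2899 bp (fold 5.55) and 2897 bp (fold 5.85). ULT1, which acts against Polycomb repression in the floral meristem, shared 1373 bp in WT against 753 bp in FAMA-LGK. Its H3K27me3 peaks were weaker, with folds of 1.85 and 2.06. H3K4me3 was listed at 24 of the 29 genes in both genotypes.

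Of 131 sugar and nitrogen transporters 7 had a region (5.3%), and 4 of these carry sucrose. SUC1 and SUC5, which are neighbours, shared 1537 and 727 bp in WT against 1396 and 695 bp in FAMA-LGK. SUC2, the phloem loader of companion cells and the vascular marker with a region, shared 592 bp in WT against 1322 bp in FAMA-LGK. Its region lay at chr1:8032424-8033015. The H3K4me3 peak of SUC2 was 592 bp (fold 1.86) in WT and 1384 bp (fold 2.37) in FAMA-LGK, and its H3K27me3 peak 1474 bp (fold 3.86) and 1322 bp (fold 3.27). Both H3K4me3 peaks of SUC2 were weak for their lists, at percentiles 2.2 and 8.9. SUT4, a vacuolar sucrose carrier, shared 1764 and 1215 bp. MSS1 (STP13), a hexose carrier, shared 1318 and 1413 bp. A region was found at 4 of 127 ABC transporters (3.1%) and 6 of 120 ion channels and metal transporters (5.0%). ABCG19, a vacuolar ABC transporter, shared 2059 bp in WT against 1876 bp in FAMA-LGK.

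Enzyme families that modify small molecules also held members. Glucosyltransferases of the UGT family had 7 of 64 (10.9%), and cytochromes P450 9 of 234 (3.8%). UGT72E1, which glucosylates lignin precursors, shared 663 bp in WT against 1448 bp in FAMA-LGK. UGT72B3 shared 539 and 1433 bp. CYP94B3, which inactivates the jasmonate hormone by hydroxylation, shared 1603 and 1720 bp. CYP81D11 shared 1781 bp in WT against 1214 bp in FAMA-LGK. In the UGT family the shared stretch was longer in FAMA-LGK at 6 of 7 members and shorter at 1, against 46.6% of the 769 genes longer. At ion channels and metal transporters with a region it went the other way, longer at 0 and shorter at 6. The direction was not tested for any list. Of 138 cell wall genes 5 had a region (3.6%), among them XTH18, a wall-loosening enzyme, with 856 bp in WT against 1242 bp in FAMA-LGK. Receptor-like proteins and kinases had 3 of 157 (1.9%), and signalling peptides 2 of 90 (2.2%).

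Other genes with long regions were BBX14, a B-box factor (1784 bp shared in WT against 2017 bp in FAMA-LGK), and EXO70H4, an exocyst subunit of trichome walls (1870 and 1751 bp). NGA3, a factor of style and leaf margin, shared 1708 and 1778 bp. HAI2, a phosphatase that restrains abscisic acid signalling, shared 1628 and 1696 bp. KAN (KANADI1), which sets the lower side of the leaf, shared 1486 bp in WT against 1749 bp in FAMA-LGK.

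The 8 genes with a symbol whose regions ranked highest by their lowest percentile over the 4 lists were WRKY48, CAF2, a chloroplast intron splicing factor, VCR, the vitamin B6 synthesis gene PDX1.1, the asparaginyl-tRNA synthetase SYNC3, SAF1, APE1, which serves photosynthetic acclimation, and TSPO, a stress-induced membrane protein. At PDX1.1 the region of 903 bp (chr2:16011672-16012574) joined an H3K27me3 peak of 3999 bp (fold 7.83) and an H3K4me3 peak of 1072 bp (fold 6.77) in WT. At CAF2 a region of 363 bp (chr1:8314963-8315325), which also covers AT1G23410, lay where an H3K27me3 peak of 6279 bp (fold 5.83) met an H3K4me3 peak of 1704 bp (fold 7.2). In this group 3 regions were shared with a neighbouring gene, those of CAF2, VCR and APE1.

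**Figure D4:**
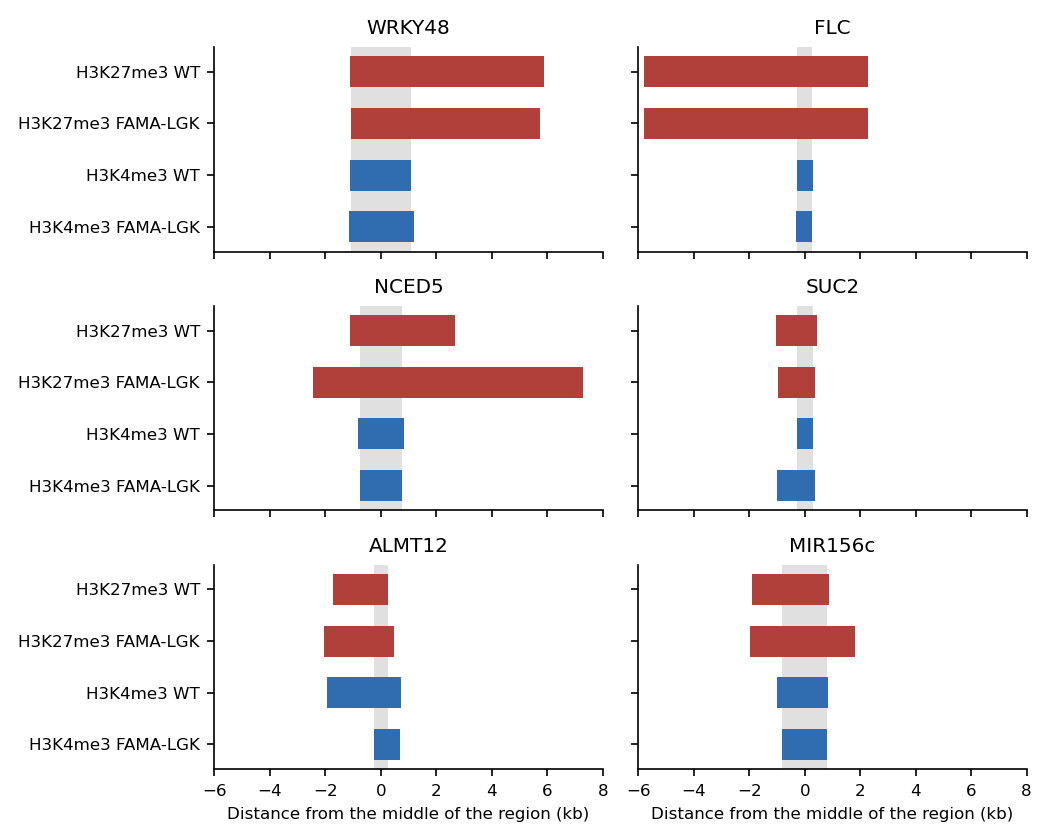
Peaks of H3K27me3 (red) and H3K4me3 (blue) in WT and FAMA-LGK at 6 genes, by distance (kb) from the middle of the region; grey bands mark the region, and only the peaks that hold it are drawn. The H3K27me3 peak at FLC is 8069 bp in WT against 560 bp of H3K4me3, the H3K27me3 peak at NCED5 is 3774 bp in WT against 9728 bp in FAMA-LGK, and the H3K4me3 peak at ALMT12 is 2677 and 925 bp.

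MicroRNA genes were examined after the regions had been seen. Of 326 annotated genes, a region touched 5 (1.53%), beside 2.85% of protein-coding genes touched by at least 1 bp. Each of the 5 lay wholly inside its region, as did 0.0182% of protein-coding genes, which are longer. They were MIR156a, MIR156b and MIR156c, of 10 MIR156 genes in the table, MIR166a, of 7, and MIR172b, of 5. MIR156 restrains the change from juvenile to adult leaves, MIR172 promotes that change and flowering, and MIR166 restricts the genes of the upper leaf side. The region at MIR156a was 1261 bp (chr2:10675908-10677168), in an H3K27me3 peak of 2503 bp in WT (fold 3.12) and 3968 bp in FAMA-LGK (fold 3.21). Its H3K4me3 peak was 1261 bp (fold 4.48) and 1482 bp (fold 3.89).

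At MIR156c the region was 1631 bp (chr4:15414505-15416135), with H3K4me3 folds of 4.7 in WT against 3.67 in FAMA-LGK and H3K27me3 folds of 3.45 and 4.34. At MIR156b it was 983 bp (chr4:15074573-15075555), with H3K4me3 folds of 3.87 and 2.51. The region at MIR172b was 672 bp (chr5:1187864-1188535), where the H3K27me3 peak measured 2894 bp in WT against 6256 bp in FAMA-LGK and the H3K4me3 peak 751 and 672 bp. The region at MIR166a was 920 bp (chr2:19176008-19176927), and its marks shared 936 bp in WT against 1031 bp in FAMA-LGK. H3K4me3 lay inside H3K27me3 in both genotypes at the MIR156 genes and MIR172b, but not at MIR166a.

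Regions with both marks in only 1 genotype show what the rule left out. Stretches of at least 150 bp with both marks numbered 1216 in WT, of which 801 (65.87%, 63.13 to 68.54) held a region. In FAMA-LGK they numbered 1090, of which 802 (73.58%, 70.85 to 76.17) held one. For the other stretches, a mark counted as present in the other genotype where it covered at least 150 bp of the stretch. Of the 415 other stretches of WT, 228 (54.9%) had H3K27me3 but not H3K4me3 in FAMA-LGK. At 173 (41.7%) H3K4me3 but not H3K27me3 was present, and 11 (2.7%) had neither. Of the 288 other stretches of FAMA-LGK, WT lacked H3K4me3 at 184 (63.9%), H3K27me3 at 96 (33.3%) and both at 6 (2.1%). At 3 stretches of WT and 2 of FAMA-LGK both marks were present, but with under 150 bp in common. In the median these stretches lay in weaker peaks than the regions did. In WT their median percentile was 41.7 for H3K27me3 and 8.9 for H3K4me3, against 59.8 and 14.4 for stretches that held a region. In FAMA-LGK it was 45.4 and 9.1, against 59.4 and 14.8. A peak near the calling threshold can be listed in 1 genotype and missed in the other, and its part in these counts was not tested.

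At the 804 regions the overlap of the marks was of similar length in both genotypes, with medians of 690.5 bp in WT against 688.5 bp in FAMA-LGK. It was longer in FAMA-LGK at 369 regions (45.9%), shorter at 430 (53.5%) and equal at 5. The median difference, FAMA-LGK minus WT, was -11 bp, and at 385 regions (47.89%) the lengths were within 100 bp of each other. Differences of 300 bp or more were found at 52 regions with a longer overlap in FAMA-LGK (6.47%) and at 62 with a shorter one (7.71%).

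The peaks of the 2 marks differed between the genotypes in opposite directions in the median. At the regions the H3K27me3 peak was longer in FAMA-LGK at 312 and shorter at 491, with a median difference of -59.5 bp. Among all 5549 H3K27me3 peaks matched 1 to 1 between the lists, 49.0% were longer and 50.8% shorter, with a median of -4 bp. The H3K4me3 peak was longer at 429 regions and shorter at 373, with a median of 16.5 bp, near the 57.6% longer, 42.1% shorter and 19 bp of all 15045 matched H3K4me3 peaks. At the 62 regions whose overlap was at least 300 bp shorter, the median difference was -400.5 bp in the H3K4me3 peak and -141 bp in the H3K27me3 peak. At the 52 with an overlap at least 300 bp longer, it was 385 and 56.5 bp. Both groups were chosen by the change in overlap, which the peak ends set, so these differences follow in part from the choice.

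The genes with the largest increase in shared length in FAMA-LGK were UGT72B3, UGT72E1, SUC2, AOC3, MLO12, PID2, ILL6 and FLC. Shared length is summed over the gene body, so it can include stretches outside the region, as at FLC. AOC3, an enzyme of jasmonate synthesis, went from 472 bp in WT to 1195 bp in FAMA-LGK, where the H3K27me3 peak measured 486 and 1195 bp and the H3K4me3 peak 1166 and 1394 bp. At SUC2 and UGT72B3 it was the H3K4me3 peak that was longer in FAMA-LGK: that of UGT72B3 was 539 bp (fold 2.32) in WT and 1669 bp (fold 3.8) in FAMA-LGK, under H3K27me3 peaks of 1607 and 1433 bp. The H3K4me3 peak of UGT72B3 was at percentile 7.7 in WT and 27.2 in FAMA-LGK. MLO12, a protein of powdery mildew susceptibility, shared 1373 and 2077 bp. ILL6, which cleaves amino acid conjugates of jasmonate, shared 435 and 1107 bp.

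The genes with the largest decrease were ALMT12, ABCG1, DJ1A, AS2, PG1, MYB74, AOX1D and NCED9. AS2, a regulator of the upper leaf side, shared 1619 bp in WT against 810 bp in FAMA-LGK, with H3K27me3 over 2847 bp of the gene in each and H3K4me3 over 1619 and 810 bp. NCED9 shared 1395 and 750 bp over its gene body, of which its region covered 692 bp. H3K27me3 covered 1805 bp of this gene in WT against 796 bp in FAMA-LGK, with H3K4me3 at 1655 and 1606 bp. ABCG1, a transporter of suberin precursors, shared 1738 and 873 bp. AOX1D, an alternative oxidase of mitochondria, shared 1214 and 536 bp, with its H3K4me3 peak at percentile 23.1 in WT and 2.2 in FAMA-LGK. These extremes were picked for their size, and with 1 list per genotype they have no replicate check. They rank genes by shared length in the gene body, so a large difference need not lie at the region itself.

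**Figure D5:**
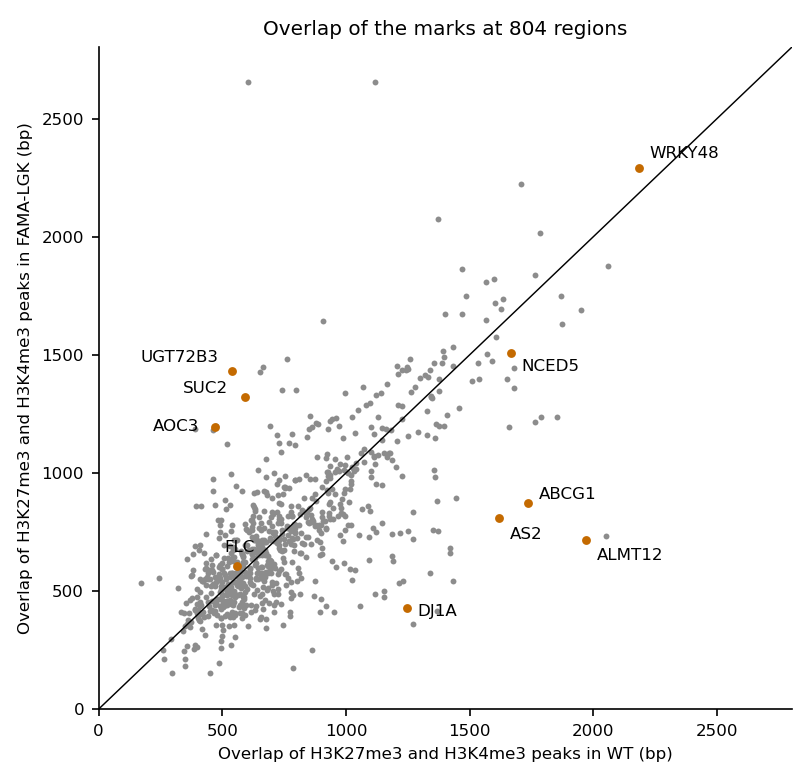
Length (bp) of the overlap of the H3K27me3 and H3K4me3 peaks at each of the 804 regions in WT (x axis) and FAMA-LGK (y axis); the line marks equal lengths, and regions of 10 genes are named in orange. Most points lie along the line (medians 690.5 and 688.5 bp), UGT72B3, SUC2 and AOC3 lie above it, and ALMT12, AS2, ABCG1 and DJ1A below it.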

How the data were processed

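Guard cell ChIP-seq of H3K27me3 and H3K4me3 was deposited as 4 peak lists, each standing for 2 ChIP and 2 input libraries, and grouped by the genotype and antibody labels. The submitters' processing notes name the build TAIR10 and the tools MACS2, Bowtie2 and CASAVA 1.8.2. For the peak threshold and the way replicates were combined, the labels record nothing (not given in the sources used here). The authors' lists give each peak a position, a summit, a score (not used), a fold enrichment as a ratio, and a −log10 p-value (not used) and a −log10 q-value, which grows with depth; the depth is unknown. Fold and q were used only to describe, rank and filter peaks within a list. No signal track was used here.

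Touching peaks within a list were merged, the 4 lists were intersected, and intersections of at least 150 bp were kept. Intersection, summit and class counts were computed in Python 3.11.15 with pandas 2.3.3, numpy 2.4.6 and scipy 1.17.1, and the interval code was tested on simulated data. Gene bodies came from a RefSeq table of TAIR10.1, whose build name differs from that of the peaks. In 20 chromosome segments, 92.1 to 98.2% of WT H3K4me3 summits lay in its genes, and moving the summits by as much as 3000 bp, 100 bp at a time, gave the best position within 100 bp of none. None of its coordinates are printed. It holds no strand or sequence, so position relative to gene starts and promoter motifs were not analysed here.

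Members and gene lists were chosen with earlier results of these data known; microRNA genes and the families under other observations were picked after their values were seen. Genes were named with a symbol by these rules: the 12 longest regions, the 8 strongest in all lists, the 8 largest increases and decreases, the 6 with most regions (which ties set by length), every member of the guard cell, stomatal, cell cycle, Polycomb, mesophyll and housekeeping lists, and 4 members of each other list. Names without an annotated gene were left out of the lists. Shares carry exact (Clopper-Pearson) 95% intervals, which treat neighbouring regions as independent. Alternatives were the minimum length, stricter or equal peak sets, merged gaps and other gene rules.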

Additional observations from a re-analysis of the deposited data

How the results depend on the processing

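The number of regions and of genes, and the shares of stretches with both marks in both genotypes, were compared across several settings. So were the nesting of the marks and the gene list counts. The settings included a −log10 q of at least 5 and equal numbers of peaks per mark. Merging gaps of up to 500 bp and the other gene rules were further settings. Not every quantity was computed under every setting, and combinations that were not computed remain untested. Where computed, the quantities stayed within 1.5 times their value, or within their intervals. The exceptions were these. With the highest 50% of peaks in every list, 30 regions and 32 genes remained (4.2% of the 769), and 1 gene of the 28 lists, WRKY48. The share of stretches with both marks in both genotypes was then 39.47% (WT) and 46.88% (FAMA-LGK), and 1 mark was nested in the other at 30.0% of regions in each genotype, against 62.56%. With a minimum of 500 bp the shares were 60.31% and 67.74%. These settings take out weak H3K4me3 peaks or short stretches by construction. Of 109 named genes, 9 kept a region with the highest 50% of peaks: WRKY48, EXO70H4, CAF2, VCR, PDX1.1, SYNC3, SAF1, APE1 and TSPO. The difference between genotypes at BLH4 was -103 bp with gaps merged, against 348 bp, and at 10 further named genes it moved without reversing, for example at BXL3 from -192 to -99 bp, at MSS1 from 95 to 338 bp and at NCED9 from -645 to -905 bp; the cause was not tested. No paired analysis was possible because the replicates of a mark and genotype were deposited as 1 peak list, without values of their own; for the same reason no replicate could be left out. Position in genes and motifs were not run. Unknown depth limits every difference in peak length between genotypes.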

Other observations

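Several small families, picked after their values were seen and therefore given as counts with nothing read from them, had members with a region, where the share among all protein-coding genes was 2.8%. They were 5 of 9 SHI/STY genes (SHI, STY1, STY2, SRS4 and LRP1), 4 of 8 NGATHA and RAV genes (NGA1, NGA3, RAV1 and EDF3), 4 of 5 NCED genes, 4 of 9 sucrose carriers and 5 of 15 leaf polarity regulators (KAN, KAN2, YAB2, YAB3 and AS2). Leaf polarity genes carried H3K27me3 over long stretches, 5130 bp at KAN2 and 4012 bp at YAB2 in each genotype, with H3K4me3 over 862 bp of KAN2 and 545 bp of YAB2 in WT and over 1195 and 673 bp in FAMA-LGK. LRP1, a root primordium gene, shared 1183 bp in WT against 1182 bp in FAMA-LGK. Heat shock factors had 5 of 21, TCP genes 3 of 22, ARGONAUTE genes 3 of 9 (AGO3, AGO5 and AGO9) and arabinogalactan proteins 6 of 50. FLA10, a fasciclin-like member of the last group, shared 1242 bp in WT against 1438 bp in FAMA-LGK.

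Genes with a region were sometimes neighbours: 127 of the 769 stood in 60 runs of adjacent protein-coding genes, and in 17 of these runs the genes shared 1 region. The longest run held 6 genes, AT3G12410, AT3G12420, AT3G12430, AT3G12440, AT3G12460 and AT3G12470. Over part of it lay 1 H3K27me3 peak of 8407 bp in WT (chr3:3946077-3954483, fold 7.21) and 8059 bp in FAMA-LGK (chr3:3947424-3955482, fold 7.96), and each of these peaks held 4 regions. Outside protein-coding genes lay 43 regions, and 35 of these touched a gene of another kind, among them 11 transcribed pseudogenes, 10 pseudogenes and 8 long noncoding RNAs.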
